A study of Mus musculus with 8 samples.

Results

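The arrays described here carried cells of the embryonic mouse cortex that had received siFoxO6-2, an siRNA against the transcription factor gene Foxo6. Those labelled with the second FoxO6 siRNA were taken, which gave 4 of the 8 arrays of the series. The mice were C57/BL6. At E14.5 (embryonic day) an siRNA and a GFP expression vector, each at 1 ug per ul, were brought into the brain in utero by 5 electric pulses of 33 V and 50 ms. The cortices were dissected at E16.5, 2 days later, and the dissociated cells were sorted. The groups were siFoxO6-2 (4 pools of sorted cells, which the labels call independent), siFoxO6-3 and cells with a scrambled siRNA. siFoxO6-3 is another siRNA against Foxo6, with 4 such pools. Its arrays were fitted together with those of siFoxO6-2, so they share in the spread and dye effect behind the p-values of the main fit. Values with siFoxO6-3 are also given below for comparison. The scrambled cells were a single pool that served as the other channel on all 8 arrays, so they have no replicates, and p-values against them hold the spread of the siRNA pools only. All groups shared the GFP vector, the electroporation and the sort, and each pool joined cortices of several embryos, so no value belongs to 1 animal. In siFoxO6-2 replicates 2 and 4 the siRNA pool was labelled with Cy5, and in replicates 1 and 3 with Cy3.

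FoxO factors are forkhead transcription factors that in many cells are held out of the nucleus by the kinase Akt, downstream of insulin and growth factor signals, and that in other tissues are known to act on genes of the cell cycle, stress resistance and metabolism. Foxo6 is the member of the family found mainly in brain. In utero electroporation brings nucleic acid into progenitors lining the ventricle of the embryonic brain, and the treated cells go on to divide, leave the cell cycle and migrate outward as young neurons. The series title names neuronal migration mediated by Plxna4, a receptor for class 3 semaphorins. All values below are log2 ratios of the siFoxO6-2 pool over the scrambled pool, so 0 means equal levels, 1 a doubled level and a negative value a lower level with siFoxO6-2.

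The siRNA strands as given in the labels are shown because the reagents differ in sequence while sharing the target. Capitals mark the stated bases, and n marks 2 leading positions that the labels leave blank. The labels do not say whether the strand is sense or antisense.
siFoxO6-2: nnACAUGCCAGUGACGACUAC
siFoxO6-3: nnCCAUCAGCCUUAUGACGCU
Each is 21 bases long with 19 stated bases, of which 10 are G or C. Of 1738 mature mouse miRNAs in RefSeq, 0 share bases 2 to 8 counted from the first stated base of either strand as written, and 0 share those of its complement. No search of transcripts for matches to the siRNAs was made here.

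Each array held 41174 gene probes. The median signal of the siRNA channel was 106, 93.5, 74.0 and 123 on siFoxO6-2 replicates 1, 2, 3 and 4, against 72.0, 73.8, 68.0 and 66.0 in the scrambled channel, over local backgrounds of 44.5 to 54. Signal above that of empty spots was found for 73.4% to 84.5% of gene probes in the siRNA channel, against 61.4% to 85.9% in the scrambled channel. Replicates 1, 2 and 4 resembled each other across genes, with highest correlations within the siRNA of 0.717, 0.724 and 0.724, while replicate 3 reached at most 0.287 with any of them. Before normalization the ratio depended on spot brightness. From the dimmest to the brightest of 10 equal bins of probes the median ratio, after centring each array, ran from -0.25 to 0.48 on replicate 1, from -0.33 to 0.79 on replicate 2 and from -0.72 to 1.51 on replicate 4. On replicate 3 it stayed between -0.04 and 0.02 in every bin. Loess normalization within each array removed this slope and was used for all main values. It hardly moved replicate 3, where values before and after correlated at 0.998 across genes, against 0.808 on replicate 1, 0.580 on replicate 2 and 0.426 on replicate 4. With median centring in place of loess the median of all genes was 0.09, bright genes stood higher and limma called 0 genes, with 5324 at an unadjusted p under 0.05. Where that setting turns the direction of a called gene named below, it is said. For genes not called and for list medians it is said only in part. Foxo1 (0.26), Foxo4 (0.28) and Eomes (0.34) are uncalled genes that turned. The source of the slope was not tested, and a true shift of bright transcripts and a shift made by labelling or scanning cannot be told apart here.

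**Figure D1:**
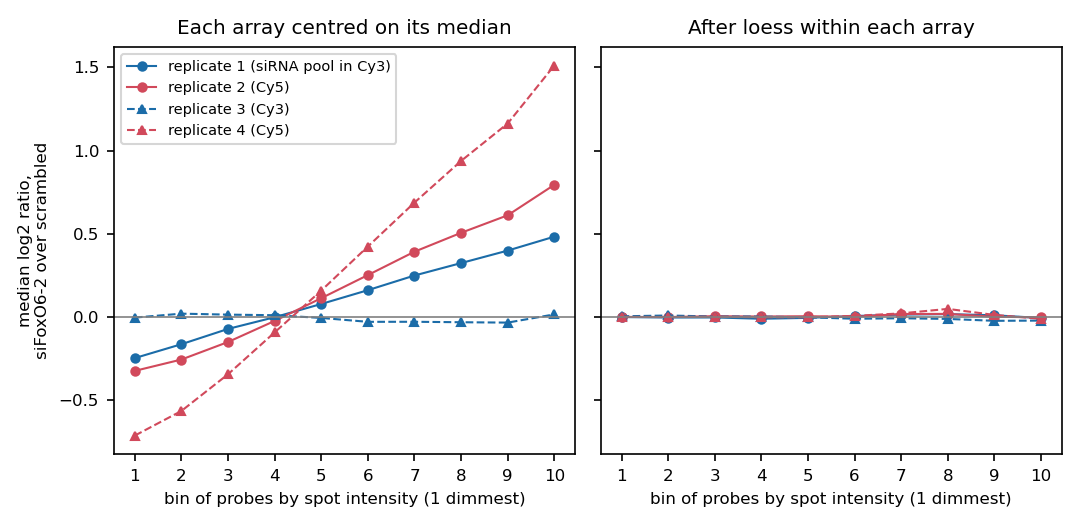
Median log2 ratio of siFoxO6-2 over scrambled in 10 equal bins of gene probes by spot intensity (1 dimmest, 10 brightest), for each of the 4 arrays, with each array centred on its median (left) and after loess (right). The ratio climbs with intensity on replicates 1, 2 and 4, up to 1.51 on replicate 4, and stays near 0 on replicate 3 and, after loess, on all 4 arrays.

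The labelled tissue was checked by its markers. Of 32 apical progenitor (radial glia) genes 31 were above the empty spots in both channels of all 4 arrays, as were 18 of 18 deep-layer neuron genes and 13 of 13 pan-neuronal genes. So were 17 of 22 microglia and macrophage genes, 16 of 21 endothelial and pericyte genes and 14 of 16 interneuron genes, cells that do not arise from cortical progenitors. The same held for 17343 of all 25310 tested and for 13 of 17 pancreatic digestive enzyme genes, so passing this level does not show RNA of a cell type. In pooled cells, fewer cells of a type and less RNA per cell of that type cannot be told apart.

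The siRNA's own target was lower on all 4 arrays. Foxo6, on chromosome 4 and measured by 1 probe, had log2 ratios of -0.88, -1.21, -0.40 and -1.30 on siFoxO6-2 replicates 1 to 4. All arrays were below 0, with replicate 3 nearest to it. The mean was -0.95 ± 0.41 (SD, n = 4), a level of 0.518 of the scrambled pool (SE 0.10, limma adjusted p = 0.0055). With Cy5 on the siRNA pool the mean was -1.26 and with Cy3 it was -0.64. Leaving out any 1 siFoxO6-2 array gave -1.03 to -0.84, called each time. Median centring gave -0.42, -0.46, -0.39 and 0.03 on the 4 arrays, with a fitted mean of -0.31 (adjusted p = 0.355), so without loess the fall was not called and replicate 4 did not show it. With siFoxO6-3 the mean was -1.65, and siFoxO6-2 minus siFoxO6-3 was 0.71 (adjusted p = 0.312).

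Other FoxO genes were not called at their brightest probes. Foxo1 stood at -0.07, Foxo3 at -0.08 and Foxo4 at -0.03 (adjusted p of 0.448 or more). A second Foxo1 probe of similar brightness was at -0.08, -0.45, -0.36 and -0.54 on replicates 1 to 4 and was called (-0.36, adjusted p = 0.019), so the probes of this gene gave different answers.

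Plxna4, the receptor in the series title, lies on chromosome 6. Its brightest probe had log2 ratios of -1.34, -0.64, -1.49 and -1.15 on siFoxO6-2 replicates 1 to 4. All arrays were below 0 and replicate 2 was nearest to it. The mean was -1.16 ± 0.37 (SD, n = 4; SE 0.12, limma adjusted p = 0.0054), and it was -0.95 with siFoxO6-3. A second probe, detected in both channels throughout, was at -0.23, 0.06, -0.07 and -0.01, with a mean of -0.06 that was not called. The mean over all Plxna4 probes was -0.41 and was called, and median centring gave -0.58 at the brightest probe (adjusted p = 0.239).

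Across all genes, 2224 of 25310 genes and unnamed probes were called at an adjusted p under 0.05, which is 8.79%. Of these, 1089 were higher (4.30%) and 1135 lower (4.48%). Among the 18322 with a gene symbol, 10.0% were called, 4.66% higher and 5.36% lower, and the gene groups below are to be read against these shares. Changes were mostly small: the median size of a called difference was 0.43 on the log2 scale, 315 genes rose and 296 fell by more than 1.5-fold, and 42 rose and 42 fell by more than 2-fold. The number called depended on single arrays, at 383 without replicate 1, 975 without replicate 2, 4281 without replicate 3 and 352 without replicate 4, and was 284 when the 4 siFoxO6-2 arrays were fitted by themselves. If the scrambled pool is given the spread of 1 siRNA pool, limma called 0 genes, and 1124 had p under 0.05 before adjustment.

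Among bright genes with the same sign on all 4 arrays, the rises were led by a group of unlike function. Xlr4b, of an X-linked family first described in lymphocytes, was at 2.91, 1.37, 2.06 and 1.90 on replicates 1 to 4. Replicate 1 was highest, and the fit gave 2.06 (SE 0.15, adjusted p = 0.0032). Xlr3c, its relative, was at 2.07, 0.88, 0.81 and 1.22 (1.25, adjusted p = 0.012). Replicate 1 was again the highest. The other 3 measured genes of the Xlr3 and Xlr4 family were not called, and transcripts of such near-identical copies may bind the same probe. A second, dimmer Xlr4b probe stood at 0.04.

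Cathepsin S, Ctss, a lysosomal protease of microglia and macrophages, was at 1.80, 1.75, 1.71 and 1.14 (1.60, SE 0.09, adjusted p = 0.0013). Lysozyme, Lyz2, another product of those cells, was at 1.34, 1.34, 1.21 and 1.03 (1.23, SE 0.10, adjusted p = 0.0043). For both genes replicate 4 was the lowest and all arrays stood above 1. Ddr1, a collagen receptor kinase, was at 1.78, 0.76, 1.99 and 0.93 (1.37, adjusted p = 0.0013), with the arrays that carried the siRNA pool in Cy3 above those in Cy5. Sparcl1, a matrix protein of radial glia, astrocytes and vessels, was at 2.07, 0.38, 1.42 and 1.06 (1.23, adjusted p = 0.0070), also lower in the Cy5 arrays. D4Wsu53e, now named Rsrp1, was at 1.38, 1.61, 1.04 and 1.36 and Rad23b, a DNA repair and proteasome factor, at 1.24, 1.01, 1.53 and 1.36. Neither of them differed much between arrays, with fitted means of 1.35 and 1.28. D0H4S114, now named Nrep, was at 1.54, 1.15, 1.33 and 2.02 (1.51, adjusted p = 0.012).

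The last of the 12 rises were smaller on replicate 3. Zfp386, a zinc finger protein gene, was at 1.67, 1.12, 0.60 and 1.55 on replicates 1 to 4 (1.23, adjusted p = 0.030). The gene 1300003B13Rik, now Zfp946, was at 2.09, 1.30, 0.17 and 1.31 (1.22, adjusted p = 0.047), and 5730507C01Rik at 1.51, 1.48, 0.60 and 1.24 (1.20, adjusted p = 0.012). For these genes replicate 3 was the lowest array each time. Xlr4b, Ctss, Ddr1, D4Wsu53e, Rad23b, Sparcl1 and Lyz2 were called without any 1 siFoxO6-2 array, and D0H4S114 and Xlr3c were not called without replicate 1 (1.48 and 1.04) or 4 (1.32 and 1.13). Zfp386, 1300003B13Rik and 5730507C01Rik were not called without replicate 1 (1.13, 0.91 and 1.09), 2 (1.22, 1.14 and 1.09) or 4 (1.04, 1.14 and 1.18). With median centring the 12 rises were larger (1.50 for Xlr3c to 2.43 for Xlr4b) and not called.

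The falls held chromatin, replication and patterning genes. Uhrf1, which brings DNA methylation to newly copied strands, was at -1.66, -1.56, -1.32 and -1.30 (-1.46, SE 0.11, adjusted p = 0.0027). Mcm3, a subunit of the replicative helicase, was at -1.25, -1.48, -1.35 and -1.33 (-1.35, SE 0.15, adjusted p = 0.0054). Hmga2, a chromatin protein of early neural progenitors, was at -1.37, -1.63, -1.51 and -1.18 (-1.42, SE 0.13, adjusted p = 0.0046). In each of these genes the 4 arrays lay close together. The histone gene Hist1h2ao, now H2ac23, was at -1.42, -1.46, -0.78 and -1.78 (-1.36, adjusted p = 0.017), and histone genes of this cluster are near copies, so its probe may read several.

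Of signalling and transcription genes, Sufu, which restrains the Gli factors of the Hedgehog pathway, was at -1.20, -1.48, -1.11 and -1.55 (-1.34, SE 0.06, adjusted p = 0.0012), and Gli3, itself such a factor, at -1.03, -1.50, -1.65 and -1.17 (-1.34, SE 0.25, adjusted p = 0.022). Both genes were below -1 on every array. Pbx3, a homeodomain factor, was at -1.19, -1.87, -2.47 and -1.12 (-1.66, adjusted p = 0.0094). Pik3ca, the catalytic subunit of PI3 kinase, was at -1.39, -0.95, -1.97 and -1.84 (-1.54, adjusted p = 0.0070). Exoc5, an exocyst subunit, was at -1.34, -1.05, -2.48 and -1.31 (-1.54, adjusted p = 0.012). In these 3 genes replicate 3 was the lowest array. Egr1, an immediate early factor, was at -0.48, -2.19, -1.10 and -2.39 (-1.54, SE 0.34, adjusted p = 0.035), with the Cy5 arrays far below the Cy3 arrays. The metabolic enzymes Ckb, a creatine kinase, at -1.27, -1.19, -0.95 and -1.90 (-1.33, adjusted p = 0.0076), and Oxct1, which uses ketone bodies, at -0.93, -0.82, -1.69 and -1.91 (-1.34, adjusted p = 0.012), completed the set. Each was lowest on replicate 4.

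Without any 1 siFoxO6-2 array Uhrf1, Mcm3, Hmga2, Sufu, Pbx3, Pik3ca and Ckb were still called. Exoc5 was lost without replicate 4 (-1.59), Oxct1 without replicate 1 (-1.44) or 4 (-1.16), and Gli3, Hist1h2ao and Egr1 without replicate 1 (-1.38, -1.37 and -1.83), 2 (-1.35, -1.29 and -1.41) or 4 (-1.49, -1.16 and -1.33). Median centring brought the 12 falls to between -1.12 (Pbx3) and -0.48 (Ckb), none called and all still negative. The naming rule took only genes with 1 sign on all 4 arrays, so that shared sign adds no support.

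**Figure D2:**
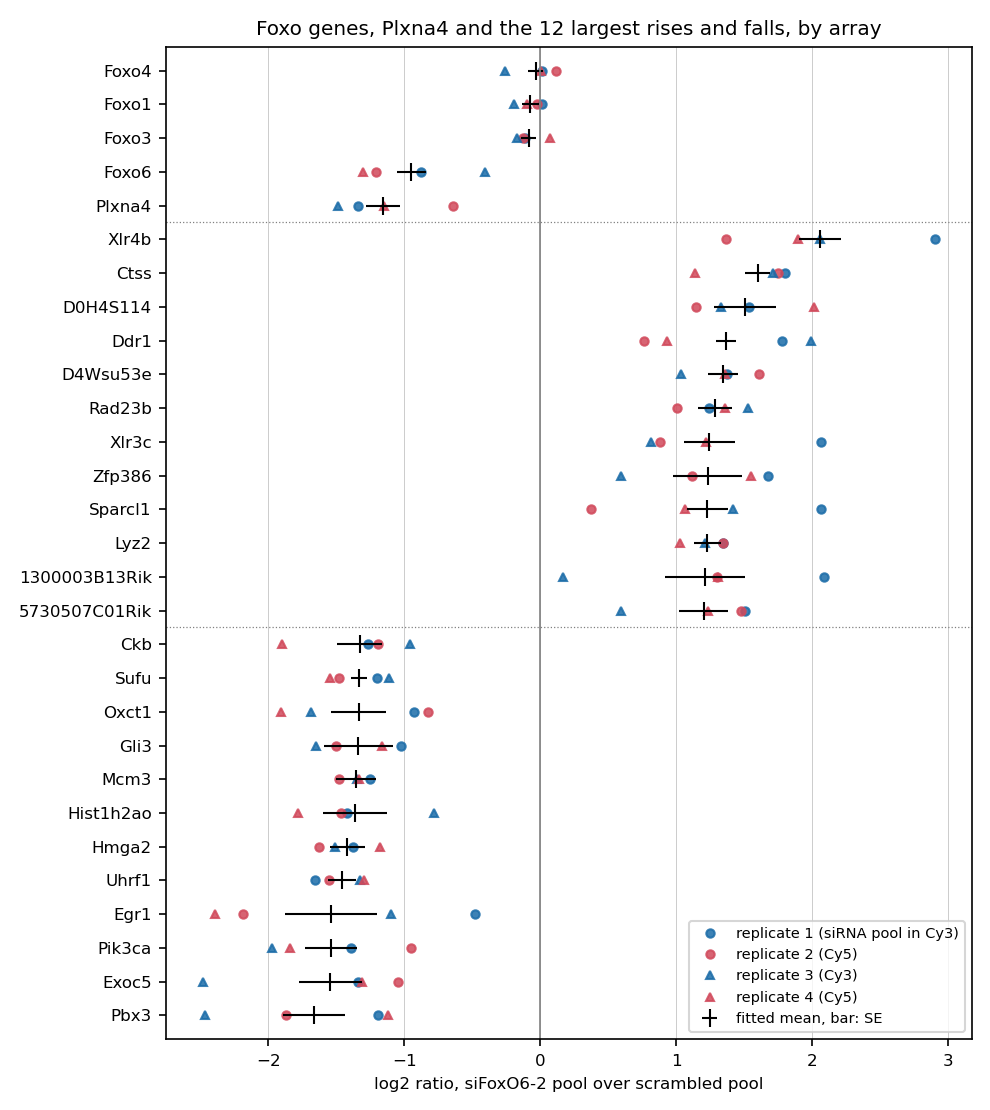
Log2 ratio of siFoxO6-2 over scrambled on each array (blue, siRNA pool in Cy3; red, siRNA pool in Cy5) for the FoxO genes, Plxna4 and the 12 largest rises and falls, with the fitted mean and its SE in black. Foxo6 lies below 0 on 4 arrays while Foxo1, Foxo3 and Foxo4 lie around 0, and Mcm3, Uhrf1 and Hmga2 have the smallest SD over the arrays among the 12 falls.

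A call rests on 1 probe, and other probes of a gene often did not follow. Of 8938 genes with several probes, 4893 had both brightest probes above the empty spots in both channels of all 4 arrays. In 765 of these the brightest probe was called. With every probe tested by itself 7.86% of 41174 probes were called. The second probe had the same sign in 534 of the 765, was called in the same direction in 178 and in the opposite direction in 18. Among all 4893 genes 13.2% of second probes were called. Of 29 genes called at over 2-fold, the second probe agreed in sign in 23 and was called the same way in 10.

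Over all 8938 genes with several probes, dim ones included, both brightest probes were called in 1 direction in 107 genes higher and 80 lower. Of the falls, Uhrf1 had its second probe at -1.60, -1.44, -1.20 and -1.22 on replicates 1 to 4 (-1.37, adjusted p = 0.0020), which nearly repeats the first. The catalytic subunit of DNA polymerase delta, Pold1, fell by 0.82 and 0.80 at its probes, and Cad, which starts pyrimidine synthesis, by 0.93 at each. Phgdh, the first enzyme of serine synthesis, fell by 1.00 and 0.86, and the radial glia factor Sox9 by 0.79 and 0.92. Nfib, a nuclear factor of cortical progenitors and neurons, fell by 1.05 and 0.92, although its brightest probe was at -0.60 to -1.82 on single arrays. With median centring Nfib was at -0.22, and as the mean of all its probes at -0.32 (adjusted p = 0.051), called in neither. Oxct1, the ubiquitin ligase Trim2, the Mediator subunit Med25, the ubiquitin-conjugating enzyme Ube2r2, the respiratory chain subunit Uqcrc1 and the Rac activator Dock1 completed the 12 falls, at -0.66 to -1.34 for either probe. Trim2 was at -1.88 on replicate 3, against -0.65, -0.38 and -0.46 on replicates 1, 2 and 4, and was at 0.03 with median centring. As the mean of all their probes Cad (-0.57) and Dock1 (-0.26) were called at a smaller size than at both brightest probes. Med25 (-0.76) stayed close to them. The genes were picked because both brightest probes were called in 1 direction, so that agreement adds no support. Of these falls Uhrf1, Pold1 and Cad were called without any 1 siFoxO6-2 array, while Phgdh was lost without replicate 1 or 4 (-0.95 without replicate 4), and Sox9 and Nfib without replicate 1 (-0.81 and -1.08), 2 (-0.69 and -1.24) or 4 (-0.87 and -1.15).

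Of the rises by both probes, Sparcl1 was at 1.23 and 1.05 and D0H4S114 at 1.51 and 1.21. Nfe2l2, the oxidative stress factor also called Nrf2, was at 0.81 and 0.77, with its brightest probe at 0.92, 0.49, 0.63 and 1.21 on replicates 1 to 4. Tmeff1, a transmembrane protein of neurons, was at 1.05 and 1.24. Cttnbp2, a cortactin-binding protein of neurons, was at 0.92 and 1.25, and Kin, a DNA-binding repair protein, at 0.84 and 0.81. The remaining rises were the zinc finger genes Zfp808 (1.11 and 0.97), Zfp442 (0.98 and 0.88) and Zfp826, now Zfp950 (0.91 and 0.79), with Trappc6b (0.94 and 1.22), Mtx2 (0.90 and 1.24) and Fam92a, now Cibar1 (0.90 and 1.00). On replicate 3 the brightest probes of Zfp808, Zfp442 and Zfp826 were at 0.27, 0.16 and 0.16, the lowest of the 4 arrays for each, against at least 0.94 on the other arrays. The zinc finger genes, Tmeff1, Cttnbp2, Kin, Trappc6b and Mtx2 were not called without replicate 1, 2 or 4 (0.66 to 1.08), nor Nfe2l2 without replicate 1 (0.80) or 4 (0.63). Fam92a was called without any of them. As the mean of all their probes D0H4S114 (0.90), Cttnbp2 (0.59), Fam92a (0.47) and Nfe2l2 (0.40) were called at a smaller size than at both brightest probes. Kin (0.82) stayed close to them.

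Several large changes rested on 1 probe. The second probe of Mcm3 was at -0.26, that of Hmga2 at -0.13, that of Sufu at 0.04, that of Rad23b at -0.08 and that of Exoc5 at 0.28, and none of these was called. As the mean of its probes Exoc5 was at -0.35 and not called (adjusted p = 0.068). Gli3 (-0.33), Ckb (-0.83) and Lrrc7 (-0.21) were called as such a mean, but at a smaller size than at their brightest probes. The second Ckb probe was at -0.33 and was not called. Of the 155 called genes named in the text 26 were not called as the mean of their probes. Among those described below were Ect2 (-0.25), Zmat3 (-0.24), Dhcr7 (-0.21), Rhoa (-0.13), Cux1 (-0.08), Rptor (-0.08), Erbb4 (-0.06), Npc1 (0.09), Rpl5 (0.12), Ttyh1 (0.13) and Psap (0.60). The second Pik3ca probe was called in the opposite direction, at 0.99, 0.36, 0.23 and 0.83 on replicates 1 to 4 (0.60, adjusted p = 0.047), so for Pik3ca the probes contradict each other and the direction of the gene is not settled.

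**Figure D3:**
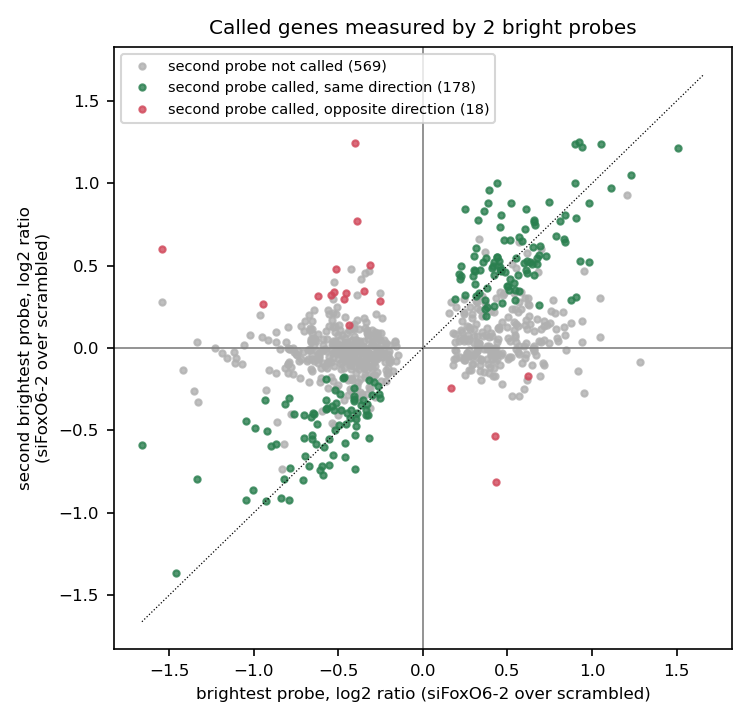
Log2 ratio of siFoxO6-2 over scrambled at the brightest (horizontal axis) and the second-brightest (vertical axis) probe of 765 called genes with 2 bright probes, with the line of equality dotted. The 178 genes whose second probe was called the same way (green) run along the line, 569 second probes were not called (grey, many near 0) and 18 were called the opposite way (red).

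Named groups of genes were then compared with the share called among all named genes. Of lists with more than 5 measured members the largest share lower was among DNA replication genes, and the largest shares higher were among p53 response, microglia and lysosomal genes. Interferon response genes, which double-stranded RNA can switch on, had a median of 0.02. Of 31 members 0 were called by limma, with 4 at p under 0.05 before adjustment. The scrambled pool also received an siRNA, so a response that both pools share would not show in this ratio. The 17 pancreatic digestive enzyme genes also had 0 called, 3 at an unadjusted p under 0.05, although Amy1 was at -0.36, -1.88, -1.42 and -2.88 on replicates 1 to 4, too far apart to pass (adjusted p = 0.159).

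**Figure D4:**
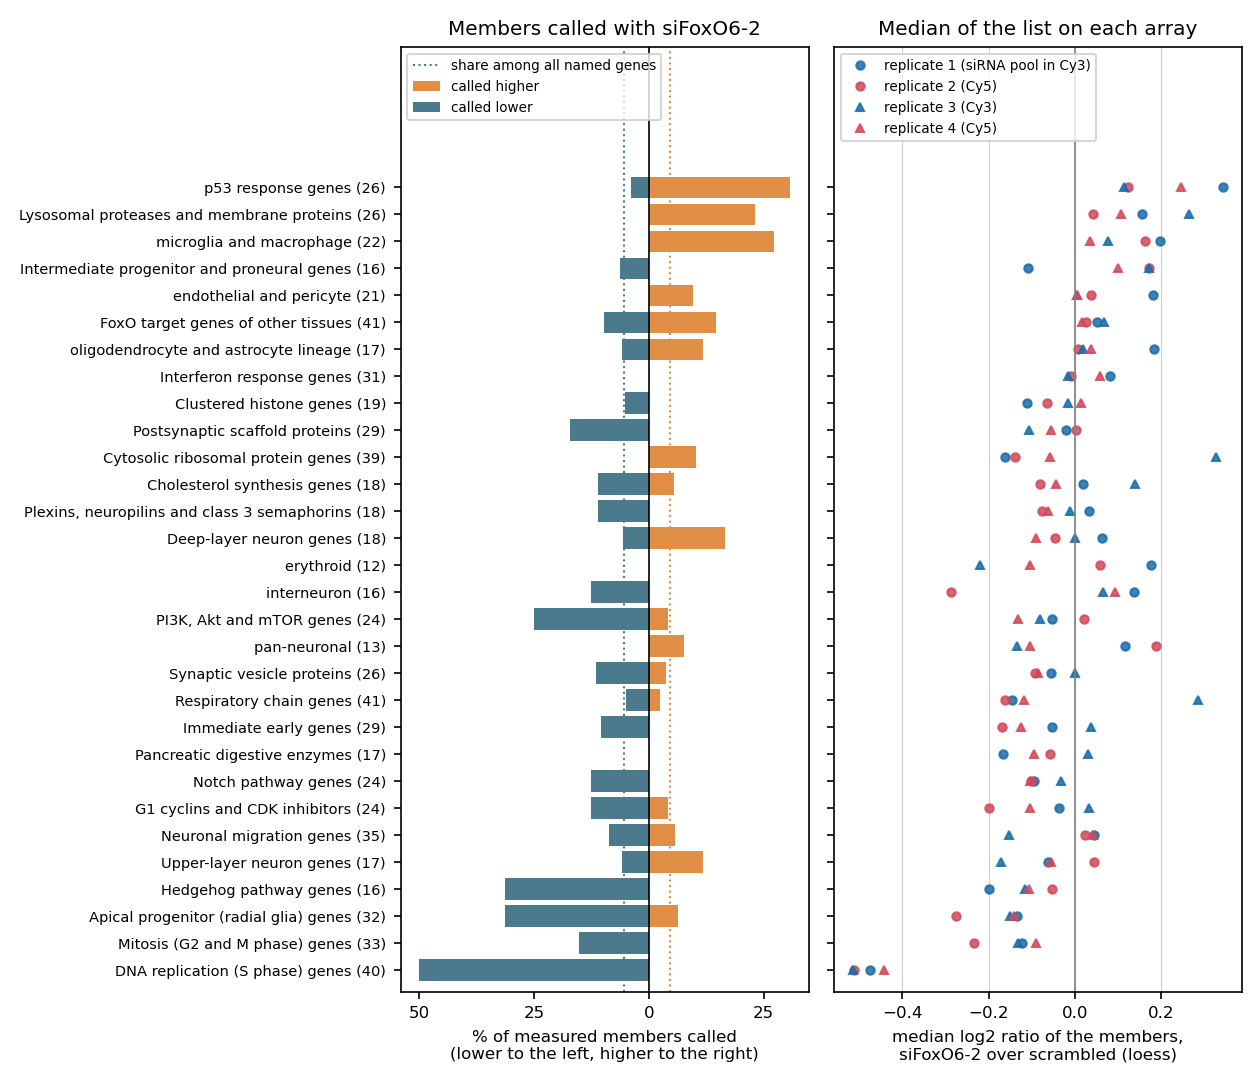
Left, percent of the measured members (number in brackets) of each gene list that were called lower (to the left) or higher (to the right) with siFoxO6-2, with the shares among all named genes dotted (5.36% lower, 4.66% higher). Right, the median log2 ratio of the list on each array after loess: only the DNA replication list lies at -0.44 or lower on all 4 arrays, and replicate 3 stands apart for ribosomal and respiratory chain genes.

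Of 40 measured genes of DNA replication 20 fell and 0 rose, and 37 had a mean below 0, with a list median of -0.48 against 0.00 over all genes tested. The list median was -0.48, -0.51, -0.52 and -0.44 on replicates 1 to 4. Members below 0 numbered 39, 39, 35 and 31 of 40. Replicate 3, whose values hardly depend on loess, had a list median of -0.53 with 35 of 40 below 0 when only centred on its median. The other arrays did depend on it: with median centring the list was at -0.23 on replicate 1, 0.01 on replicate 2 and 0.56 on replicate 4, and the fitted list median was 0.14 below that of all genes. The number that fell was 11, 15, 21 and 12 without replicates 1, 2, 3 and 4, and 13 with the siFoxO6-2 arrays fitted by themselves.

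Within the group, all subunits of the MCM helicase, which unwinds DNA at the fork, fell. Mcm2 was at -1.48, -1.29, -1.11 and -1.18 on replicates 1 to 4 (-1.26, SE 0.13, adjusted p = 0.0050). Mcm6 was at -1.04, -0.91, -1.09 and -0.93 (-0.99, SE 0.11, adjusted p = 0.0057). Every array of Mcm2 was below -1 and every array of Mcm6 below -0.9. Besides Mcm3, the others were Mcm7 (-0.83), Mcm4 (-0.71) and Mcm5 (-0.70), which were not called without replicate 1 (-0.69, -0.75 and -0.61) or 4 (-0.82, -0.82 and -0.69), and Mcm4 and Mcm5 not without replicate 2 (-0.74 and -0.66).

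Factors that load the helicase at origins fell too. Cdc6 was at -0.76, -0.85, -0.52 and -0.52 (-0.66, adjusted p = 0.0047). Its partner Cdt1 was at -0.96, -1.15, -0.58 and -0.61 (-0.83, adjusted p = 0.012; -0.76 and not called without replicate 1). In both genes replicates 1 and 2 were lower than 3 and 4.

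The polymerases and their helpers followed. Pole, of the leading strand polymerase, was at -1.14, -0.87, -0.99 and -1.18 (-1.04, adjusted p = 0.0054), and Pold1, of the lagging strand, at -0.91, -0.81, -0.61 and -0.96. Both were below -0.6 on every array. The ligase Lig1 stood at -0.69, the clamp loader subunit Rfc2 at -0.57, the single-strand binding protein Rpa2 at -0.63, the primase subunit Prim2 at -0.42 (0.10 with median centring), the uracil glycosylase Ung at -0.63 and the chromatin assembly subunit Chaf1a at -0.36. Of these, Lig1 and Rfc2 were called without any 1 array. The second Rfc2 probe was at -0.12 and was not called. Nucleotide supply fell as well: Rrm2, of ribonucleotide reductase, was at -0.86, -0.69, -1.10 and -0.95 (-0.90, adjusted p = 0.017; -0.90 and -0.91 and not called without replicates 1 and 4). Tyms, thymidylate synthase, was at -0.65, -0.39, -0.59 and -0.47 (-0.53, adjusted p = 0.0046), although it stood at 0.07 with median centring. The maintenance methylase Dnmt1, at -0.81, -0.51, -0.50 and -0.68 (-0.62, adjusted p = 0.0050), fell with its partner Uhrf1. Not all members moved: the sliding clamp Pcna had a mean of -0.12 that was not called, and Gins1, Ccne2 and Rfc3 had means above 0.

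With siFoxO6-3 the same list had a median of -0.03, Mcm2 a mean of -0.25 and Mcm6 a mean of -0.17. The difference between the siRNAs was not called for any member, with adjusted p = 0.260 for Mcm2 and 0.274 for Mcm6, so a difference between the siRNAs is not shown here.

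**Figure D5:**
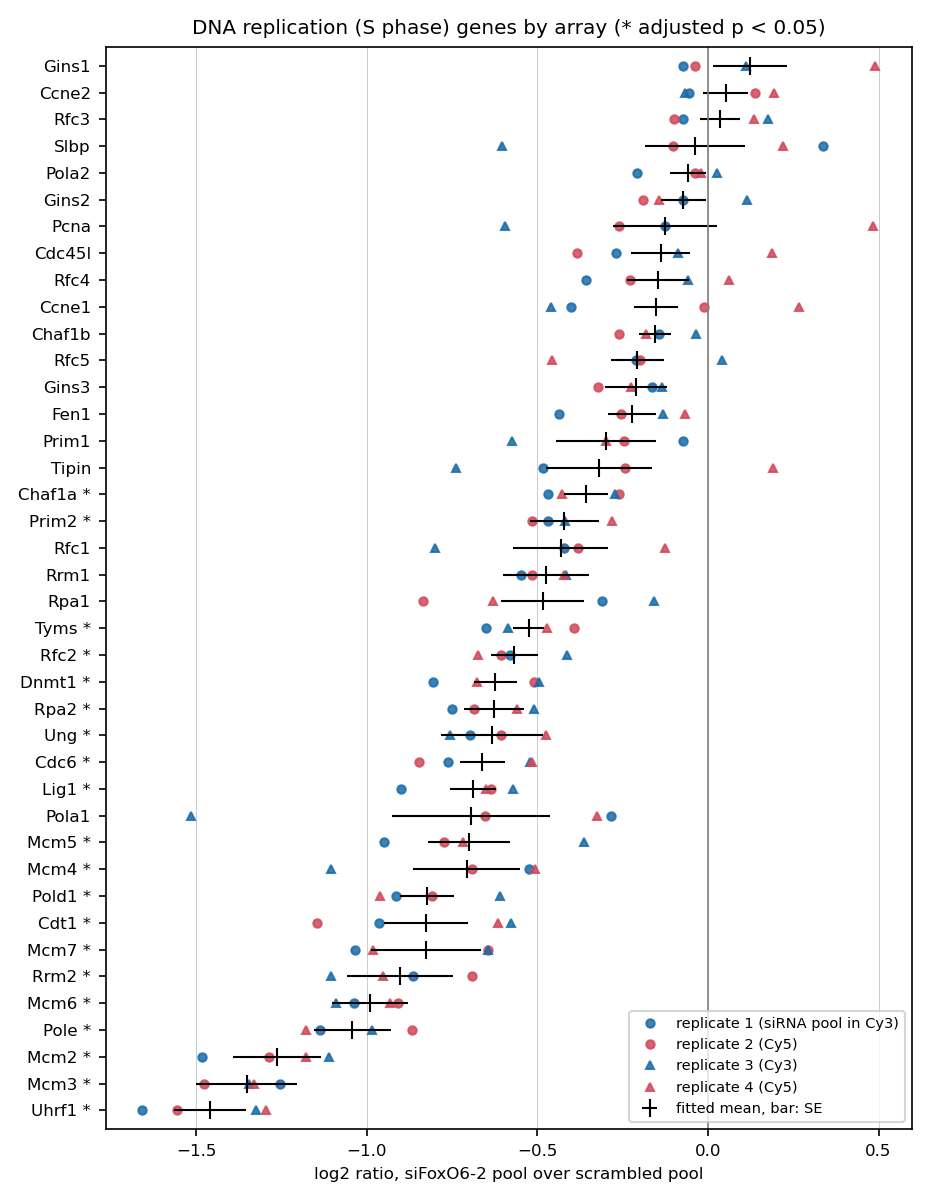
Log2 ratio of siFoxO6-2 over scrambled for the 40 measured DNA replication genes on each array (blue, siRNA pool in Cy3; red, siRNA pool in Cy5), with the fitted mean and SE in black and a star where the gene was called. From Mcm6 down to Uhrf1 every array lies at -0.87 or lower, and 3 genes at the top have means above 0.

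Many replication genes are known targets of E2F factors, and promoter windows were read to show what that site looks like in members that fell. Windows of 250 bases before the transcription start (RefSeq, GRCm38.p6) were searched on both strands for TTTGGCGC, TTTCCCGC, TTTGCCGC and TTTCGCGC, which can overlap each other. At least 1 was found in 9 of 32 replication genes with a window (28.1%) and in 6 of the 16 that fell, Uhrf1, Cdc6, Dnmt1, Mcm5, Mcm6 and Mcm7. The share was 2.96% of all tested genes with a window and 1.86% of all windows. Over the whole comparison it was 5.13% of genes that fell and 2.44% of genes that rose. Such matches describe letters and show no binding. Below, capitals mark the matches, including overlapping ones joined to 1 run, on the strand of the gene. The windows are chr1:128359706-128359955 (minus strand) for Mcm6, chr8:75109259-75109508 (plus strand) for Mcm5 and chr11:98907901-98908150 (plus strand) for Cdc6.
Mcm6: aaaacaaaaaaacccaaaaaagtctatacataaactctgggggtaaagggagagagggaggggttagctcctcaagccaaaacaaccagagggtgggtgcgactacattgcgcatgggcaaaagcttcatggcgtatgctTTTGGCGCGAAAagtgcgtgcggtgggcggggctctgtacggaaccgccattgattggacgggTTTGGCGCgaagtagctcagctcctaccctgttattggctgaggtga
Mcm5: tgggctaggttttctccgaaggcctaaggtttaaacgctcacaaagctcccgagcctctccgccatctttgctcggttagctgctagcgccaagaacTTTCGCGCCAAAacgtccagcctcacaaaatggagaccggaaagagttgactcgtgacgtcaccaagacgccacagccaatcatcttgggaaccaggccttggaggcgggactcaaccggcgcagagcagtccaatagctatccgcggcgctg
Cdc6: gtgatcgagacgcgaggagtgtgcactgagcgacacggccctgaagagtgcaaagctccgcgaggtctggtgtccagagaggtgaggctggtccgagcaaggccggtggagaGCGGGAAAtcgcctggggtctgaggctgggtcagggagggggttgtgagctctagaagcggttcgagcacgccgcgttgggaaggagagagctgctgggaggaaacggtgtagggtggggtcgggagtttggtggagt
The Mcm6 window holds 3 matches, 2 of which overlap, at 103, 99 and 40 bases before the start. Mcm5 has 2 overlapping matches and Cdc6 has 1, read on the opposite strand.

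Of 33 measured genes of mitosis 5 fell and 0 rose, with a list median of -0.18 that turned to 0.27 with median centring. Those that fell were Ect2, which guides cytokinesis (-0.66), the spindle factor Tpx2 (-0.60), the checkpoint kinase Bub1b (-0.59), the mitotic kinase Plk1 (-0.53, but 0.01 with median centring) and the phosphatase Cdc25b (-0.40, but 0.04 with median centring). Tpx2 was at -0.51, -0.60, -0.81 and -0.49 on replicates 1 to 4 and Bub1b at -0.72, -0.80, -0.48 and -0.35. Every array of both lay below 0. Without replicate 1, 0 of the 33 were called, and without replicates 2, 3 and 4 the number that fell was 1, 4 and 1. The list median with siFoxO6-3 was 0.28, on the other side of 0, and 0 members differed between the siRNAs.

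Of 24 G1 cyclins and CDK inhibitors 3 fell and 1 rose. Cyclin D2, Ccnd2, which drives progenitors into the cycle, was at -0.80, -0.62, -0.55 and -0.54 (-0.63, adjusted p = 0.0069), with all arrays below 0 and the call kept without any one of them. The second Ccnd2 probe was at -0.06 and was not called, while the mean of its probes was -0.47 and was called. The other falls were cyclin D1, Ccnd1 (-0.51, 0.03 with median centring), and the transcription factor E2f1 (-0.48). The second E2f1 probe was at -0.08 and was not called. The rise was Cdkn1a, the CDK inhibitor p21, at 0.35, 0.31, 0.71 and 0.56 (0.48, SE 0.08, adjusted p = 0.016). All arrays were above 0, with replicate 3 the highest, and the gene was not called without replicate 1 (0.53) or 4 (0.46).

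Cdkn1a is also a target of p53, the DNA damage factor, and the p53 response list had 8 of 26 members higher and 1 lower, with a median of 0.21. Eda2r, a death receptor on the X chromosome, was at 1.20, 1.25, 0.70 and 1.15 on replicates 1 to 4 (1.07, SE 0.12, adjusted p = 0.0053), and -0.02 with siFoxO6-3. Every siFoxO6-2 array was at least 0.70, and siFoxO6-2 minus siFoxO6-3 did not pass (adjusted p = 0.223). As the mean of its probes Eda2r was at 0.40, smaller than at its brightest probe, and was called. Ei24, an autophagy protein induced by p53, was at 0.78, 0.95, 1.51 and 0.93 (1.04, adjusted p = 0.0085). Ddit4, which restrains mTOR under stress, was at 0.66, 0.53, 0.95 and 0.56 (0.68, adjusted p = 0.0046). In both, replicate 3 was the highest array.

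Cyclin G1, Ccng1, was at 1.24, 0.96, 0.09 and 1.42 (0.93, adjusted p = 0.037), where replicate 3 was close to 0. Phlda3, which blocks Akt at the membrane, was at 0.59, 0.39, 1.10 and 0.88 (0.74), the nuclease Aen at 0.45 and the cell death gene Bbc3, also called Puma, at 0.29. The gene that fell was the RNA-binding protein Zmat3 (-0.43), which stood at 0.18 with median centring. The list count fell to 3 higher without replicate 1, 5 without replicate 2 and 3 without replicate 4, was 13 without replicate 3, and was 2 with the siFoxO6-2 arrays by themselves. Eda2r, Ei24 and Ddit4 were called without any 1 siFoxO6-2 array.

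Apical progenitors, or radial glia, are the stem cells of the cortex. Of 32 of their genes 10 fell and 2 rose, and the list median of -0.15 turned to 0.33 with median centring. Cdon, a cell surface receptor for Hedgehog ligands, was at -1.12, -1.20, -1.41 and -1.33 on replicates 1 to 4 (-1.27, SE 0.15, adjusted p = 0.0070). The enzyme Ddah1 was at -0.82, -1.04, -1.04 and -0.82 (-0.93, adjusted p = 0.020). Both lay below -0.8 on every array. Sox9 was at -0.52, -1.26, -0.58 and -0.80 (-0.79, adjusted p = 0.021) and the intermediate filament nestin, Nes, at -0.35, -0.80, -0.81 and -0.64 (-0.65, adjusted p = 0.010). The polarity protein Pard3 was at -0.67, -0.46, -0.54 and -0.92 (-0.65, adjusted p = 0.0055). The remaining falls were Gli3, Tcfap2c (-0.45, 0.09 with median centring), Pax6 (-0.39, 0.34 with median centring), Notch1 (-0.31) and Notch2 (-0.28). Pax6, the factor that marks dorsal radial glia, was at -0.06 and not called when its probes were averaged. The endothelin receptor Ednrb (0.86) and the membrane protein Ttyh1 (0.47) rose. Of the 12, Cdon and Pard3 were called without any 1 siFoxO6-2 array, and the count lower was 3, 4, 10 and 2 without replicates 1, 2, 3 and 4.

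Hedgehog signalling sustains progenitors, and of 16 measured pathway genes 5 fell and 0 rose (median -0.10, 0.06 with median centring). Besides Sufu, Gli3 and Cdon these were the activator Gli2, at -0.39, -0.33, -0.45 and -0.36 (-0.38, adjusted p = 0.016), and the transducer Smo, at -0.47, -0.36, -0.20 and -0.47 (-0.37, adjusted p = 0.011), which stood at 0.22 with median centring. All arrays of both genes were below 0. The members that fell act on both sides of the pathway, since Smo, Cdon and Gli2 promote its output and Sufu restrains it. The second probes of Gli2 (-0.05), Smo (-0.19) and Sufu (0.04) were not called. As the mean of their probes Cdon (-0.72) and Gli2 (-0.22) were called. Gli2 and Smo were lost without replicate 1 (-0.37 and -0.32) or 4 (-0.40 and -0.35). Of 24 Notch pathway genes 3 fell and 0 rose (12.5%, against 10.0% of all named genes). Those that fell were all receptors: Notch3 (-0.41), Notch1 and Notch2. Each fell by less than 1.5-fold and was lost without replicate 1 or 4, at -0.46 to -0.24.

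Intermediate progenitors, which arise from radial glia, showed 1 of 16 genes lower, Kif26a (-0.49), and 0 higher. That is 6.25% called, against 10.0% of all named genes. Their defining factor Eomes, also called Tbr2, was at -0.11, -0.12, -0.14 and -0.20 (-0.14, adjusted p = 0.062) and was not called.

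FoxO target genes known from other tissues went both ways: of 41 measured, 6 rose and 4 fell, with a median of 0.02. Txnip, an inhibitor of thioredoxin and of glucose uptake, was at 0.63, 0.65, 1.09 and 0.80 on replicates 1 to 4 (0.79, SE 0.08, adjusted p = 0.0049). All arrays were above 0.6, and the call held without any one of them. The second Txnip probe was at 0.06 and was not called (limma adjusted p = 0.515), so the rise rests on 1 probe. Ccng2, which slows the cell cycle, was at 0.50, 0.93, 0.18 and 0.85 (0.61, adjusted p = 0.019) and Pik3ip1, an inhibitor of PI3 kinase, at 0.28, 0.38, 0.57 and 0.20 (0.36, adjusted p = 0.014). Cdkn1a, the repressor Bcl6 (0.36) and the mitophagy protein Bnip3 (0.33) were the other rises. The falls were Ccnd2, Ccnd1, the pseudokinase Trib1 (-0.32) and the factor Klf4 (-0.24). Cyclin D genes are lowered by FoxO factors in other cells, so the list mixes genes that FoxO raises and genes that it lowers. The count was 2 higher and 1 lower without replicate 1 or 2, 10 and 3 without replicate 3 and 1 and 1 without replicate 4.

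Txnip carries a FoxO core match in its promoter window and is shown for that reason. The letters GTAAACA, searched on both strands, were found in 3 of 34 FoxO target genes with a window, Txnip, Bcl2l11 and Trim63, and in 3.15% of all tested genes with a window. They were in 3.02% of genes that rose and 2.75% of genes that fell. The window of 250 bases is chr3:96557707-96557956 on the plus strand of GRCm38.p6 (RefSeq), with the match in capitals 115 bases before the start.
Txnip: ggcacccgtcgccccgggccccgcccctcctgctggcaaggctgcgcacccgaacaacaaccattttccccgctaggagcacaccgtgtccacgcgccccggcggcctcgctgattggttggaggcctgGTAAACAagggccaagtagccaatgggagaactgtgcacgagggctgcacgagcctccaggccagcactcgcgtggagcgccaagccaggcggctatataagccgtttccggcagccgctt

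PI3 kinase, Akt and mTOR signalling lies upstream of FoxO factors, and 6 of its 24 measured genes fell and 1, Pik3ip1, rose (median -0.04, 0.28 with median centring). The insulin-like growth factor receptor Igf1r was at -0.88, -0.56, -0.78 and -0.68 (-0.73, adjusted p = 0.014). Akt1 was at -0.61, -0.65, -0.40 and -0.84 (-0.62, adjusted p = 0.038, but 0.09 with median centring). All arrays of both lay below 0. The second probes of Igf1r (-0.18) and Akt1 (-0.09) were not called. As the mean of their probes Igf1r (-0.18) and Akt1 (-0.36) were called at a smaller size than at their brightest probes. Pik3ca has the opposing probes described above, and as the mean of its probes it was at -0.47 and not called. Rptor (-0.31), the phosphatase Phlpp1 (-0.29) and Tsc2 (-0.27), which act on mTOR or Akt, were at 0.23, 0.19 and 0.26 with median centring. The count lower was 1 without replicate 1, 3 without replicate 2, 5 without replicate 3 and 1 without replicate 4.

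Of 18 plexins, neuropilins and class 3 semaphorins 2 fell and 0 rose (11.1%, against 10.0% of all named genes), with a median of -0.01. Besides Plxna4 this was Nrp1, the neuropilin that binds semaphorin 3A, at -0.54, -0.11, -0.78 and -0.68 (-0.53, SE 0.11, adjusted p = 0.033). Replicate 2 was close to 0. A second Nrp1 probe was at 0.46, 0.97, -0.76 and 0.17, changing sign between arrays, and the mean of all Nrp1 probes was -0.14 and not called. Without replicates 1 or 4 Nrp1 was at -0.53 and -0.47 and not called.

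Of 35 neuronal migration genes 3 fell and 2 rose. Ndel1, a dynein regulator, was at -0.26, -0.67, -0.50 and -0.60 (-0.51, adjusted p = 0.0064), and was called without any 1 siFoxO6-2 array. Cdk5r1, the activator p35 of the kinase Cdk5, was at -0.44, -0.43, -0.33 and -0.86 (-0.52, adjusted p = 0.016), and the small GTPase Rhoa at -0.54, -0.53, -0.28 and -0.28 (-0.41, adjusted p = 0.013). These 3 genes turned with median centring, to 0.14, 0.07 and 0.16. The integrin subunit Itga3 rose (0.42; 0.13 and not called when its probes were averaged). Tubb2b, a tubulin of migrating neurons and among the brightest probes, was at -0.36, 1.55, -0.34 and 1.54, positive only where the siRNA pool carried Cy5. The dye term in the fit takes up such a pattern and left 0.60 (adjusted p = 0.021), so the call of Tubb2b rests on arrays of opposite sign.

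Among deep-layer neuron genes 3 of 18 rose and 1 fell (median -0.01). The calmodulin regulator Pcp4 was at 0.58, 0.67, 0.47 and 0.75 (0.62, adjusted p = 0.0064), with all arrays alike and the call kept without any one of them. Crym, a thyroid hormone-binding protein, was at 1.11, 0.27, 0.84 and 0.66 (0.72, adjusted p = 0.0073), and the factor Bhlhe22, which the upper-layer list also holds, at 0.72, 0.88, 0.56 and 0.50 (0.66, adjusted p = 0.010). All arrays of both were above 0. The fall was Foxp2 (-0.60; -0.11 and not called when its probes were averaged). Among 17 upper-layer genes Bhlhe22 and Lmo4 (0.50) rose, and Cux1 fell (-0.43, 0.14 with median centring). Of 13 pan-neuronal genes 1 rose, the growth cone protein Gap43 (0.45), and 0 fell.

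Of synaptic vesicle genes 15.4% were called and of postsynaptic genes 17.2%, against 10.0% of all named genes. Of 26 synaptic vesicle genes Synpr rose, at 1.06, 0.81, 0.62 and 1.23 (0.93, adjusted p = 0.0083), and Cplx2 (-0.73), Syt11 (-0.58) and Vamp2 (-0.44) fell at their brightest probes, the first pair standing at 0.03 and 0.11 with median centring. The second Vamp2 probe was called in the opposite direction (0.14, adjusted p = 0.049), and as the mean of their probes Vamp2 (-0.06) and Syt11 (-0.12) were not called. Of 29 postsynaptic genes 5 fell and 0 rose, led by the scaffold Lrrc7 at -0.77, -0.99, -1.58 and -0.61 (-0.99, adjusted p = 0.014; -0.95 and -1.10 and not called without replicates 2 and 4). Replicate 3 was the lowest there. Of the others, Dlgap4 (-0.54), Gria4 (-0.38), Camk2a (-0.26) and Dlg2 (-0.25), the second Dlg2 probe was called in the opposite direction (0.28, adjusted p = 0.026), so its direction is not settled. As the mean of their probes these 4 genes stood at -0.17, -0.09, -0.13 and -0.06 and were not called, and each lost its call without replicate 1 (-0.49, -0.43, -0.30 and -0.25) or 4 (-0.50, -0.35, -0.22 and -0.21).

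Immediate early genes had 3 of 29 members lower and 0 higher. That is 10.3% called, close to the 10.0% of all named genes. Next to Egr1, Jun was at -0.37, -1.34, -0.31 and -0.96 (-0.75, adjusted p = 0.021), again lower with Cy5 on the siRNA pool, and Klf4 was at -0.24. All 3 calls were lost without replicate 1 (-1.83, -0.79 and -0.25), 2 (-1.41, -0.61 and -0.27) or 4 (-1.33, -0.77 and -0.21).

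Microglia and macrophage genes rose in part. Of 22 measured, 6 rose and 0 fell, with a median of 0.11 and array medians of 0.20, 0.16, 0.08 and 0.04 on replicates 1 to 4. Besides Ctss and Lyz2 these were the receptor Csf1r, on which microglia depend, at 0.67, 0.96, 0.29 and 1.08 (0.75, adjusted p = 0.0070), and Aif1, also called Iba1, at 0.56, 0.33, 0.53 and 0.26 (0.42, adjusted p = 0.0046). All arrays of both genes were above 0, and Ctss, Lyz2, Csf1r and Aif1 were called without any 1 siFoxO6-2 array. The other Csf1r probes were at 0.03 and -0.04. Tyrobp (0.25) and the purine receptor P2ry12 (0.41) also rose. P2ry12 was above the empty spots in the scrambled channel on 1 of 4 arrays only, and both calls were lost without replicate 1 (0.23 and 0.27), 2 (0.31 and 0.41) or 4 (0.25 and 0.39).

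Lysosomal genes, which partly overlap this group, had 6 of 26 members higher and 0 lower, with a median of 0.16. After Ctss these were cathepsin L, Ctsl, at 1.02, 0.89, 1.31 and 1.04 (1.07, adjusted p = 0.012), cathepsin C, Ctsc, at 1.26, 0.63, 0.52 and 0.89 (0.83, adjusted p = 0.013), prosaposin, Psap (0.61), cathepsin H, Ctsh (0.38), and the cholesterol exporter Npc1 (0.19). Every array of Ctsl and Ctsc was above 0.5. Without replicate 1 or 4, 1 of these calls was kept, that of Ctss. Cortical cells express Ctsl and Psap too, and the part of microglial RNA in the lysosomal list was not tested.

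Markers of other cell types that could be in the sort were counted too. Of 21 endothelial and pericyte genes Cldn5 (0.51) and Vtn (0.40) rose and 0 fell (9.52%, against 10.0% of all named genes). Both were highest on replicate 1, at 1.09 and 0.87. Of 16 interneuron genes Sst (-0.30) and Erbb4 (-0.26) fell and 0 rose (12.5% called), at 0.01 and 0.35 with median centring. The largest mean of that list was upward, Dlx1 at 0.77, and was not called (limma adjusted p = 0.063). Means were above 0 for 7 members and below 0 for 9. Of 17 oligodendrocyte and astrocyte genes Sparcl1 and Olig1 (0.51) rose and Mbp (-0.63) fell. Of 12 erythroid genes 0 were called, with 1 at an unadjusted p under 0.05.

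Among 39 cytosolic ribosomal protein genes 4 rose and 0 fell, led by Rpl4 at 1.15, 0.90, 1.38 and 1.14 (1.14, adjusted p = 0.013) and followed by Rps19 (0.55), Rpl5 (0.53) and Rpl13 (0.29). The share called was 10.3%, close to the 10.0% of all named genes. The list median was -0.16, -0.14 and -0.06 on replicates 1, 2 and 4 and 0.33 on replicate 3. Without replicate 3 the list had 4 higher and 7 lower. Respiratory chain genes had 1 higher and 2 lower of 41, with array medians of -0.15, -0.16, 0.29 and -0.12, and 0 higher and 11 lower without replicate 3. Ribosomal genes have processed pseudogenes, so a probe may read more than 1 locus. Of 18 cholesterol synthesis genes Insig1 (0.41) rose and the sterol carrier Stard4 (-0.62) and the reductase Dhcr7 (-0.36, but 0.14 with median centring) fell, and of 19 clustered histone genes Hist2h2aa1 fell (-1.19).

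The siRNAs against Foxo6 were compared directly, since in siFoxO6-2 minus siFoxO6-3 the scrambled pool drops out. Only 1 of 25310 genes was called (0.00395%), with 1838 at an unadjusted p under 0.05. It was Sufu, with siFoxO6-2 values of -1.20, -1.48, -1.11 and -1.55 against siFoxO6-3 values of -0.15, -0.40, 0.21 and -0.41 on replicates 1 to 4. The difference was -1.15 (limma adjusted p = 0.0445). Sufu was picked by this contrast, so the distance between its groups adds no support. When only centred on the median, the siFoxO6-2 arrays stood at -0.91, -1.02, -1.13 and -0.87, with a fitted mean of -0.98 that was not called (adjusted p = 0.182), and that setting called 0 genes between the siRNAs. The second Sufu probe was at 0.04 with siFoxO6-2 and 0.02 with siFoxO6-3, and the mean of all its probes gave a difference that was not called. Of the other large differences between the siRNAs, Ctss (1.60 with siFoxO6-2 and 0.49 with siFoxO6-3) had adjusted p = 0.122 and Tyms (-0.53 and 0.13) adjusted p = 0.107.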

How the data were processed

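RNA of sorted cortical cells was measured on 8 arrays of 45220 spots, of which 41174 were gene probes, with the siRNA pool and the scrambled pool in different dyes. Per the file headers, the deposited scanner files give spot intensity and local background intensity per channel. A deposited table gives log2 ratios of the siRNA over the scrambled channel, by a method not given in the sources used here, and served as an alternative. The scanner program, slide and scan are not given in the sources used here. Depth has no meaning for arrays, and the number of arrays limits the precision.

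Mean intensities were corrected by normexp (offset 50) and normalized by loess within arrays, with 4046 control spots at weight 0. Loess assumes that most genes of any brightness do not change. The brightest probe stood for a gene, which left 25310 genes and unnamed probes, 18322 with a symbol (34186 probes had 1 symbol, 6988 none). A probe was above the empty spots when it passed the 97.5th percentile of 959 such spots. All 8 arrays were fitted by lmFit and eBayes of limma 3.58.1 (R 4.3.3) with 1 coefficient per siRNA, signed by dye, and a dye term, leaving 5 residual degrees of freedom. Tests were two-sided, and genes with a Benjamini-Hochberg adjusted p under 0.05 over all tested genes were called. Means given with a test are the fitted coefficients. The fit was tested on simulated data with independent noise on each array. Those data held no spread of the scrambled pool and no intensity slope, so that test does not bear on either.

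Replicate numbers were not used to pair the arrays of the siRNAs in the main fit. Deviations of arrays with the same number correlated at 0.53, 0.22, -0.10 and -0.27 for replicates 1 to 4. Within a dye orientation this was 0.27 for replicates 1 and 3 and -0.13 for replicates 2 and 4, so pairing is not settled. The members and lists were chosen with earlier results of these data known. Of 776 genes in the 32 lists, 695 were found under their symbol, 16 under a synonym, and 65 were not found. Named genes were the 12 largest rises and falls (1 sign on 4 arrays, above median brightness), the 12 in each direction called by both of their brightest probes, the FoxO genes and Plxna4, the 4 list members with the smallest p, and genes called between the siRNAs. Other called list members and sex-linked genes were added after their values were seen. Alternatives covered background, normalization, the deposited table, the dye term, the arrays fitted, dim probes, the variance model, the probe rule, a replicate block, array weights, the spread of the scrambled pool, each dye orientation and each array left out.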

Additional observations from a re-analysis of the deposited data

Results flagged for a closer look

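Of 195 named genes and 13 measures of array quality, 5 genes and 1 measure had an array standing apart from the other 3 by Dixon's criterion, which chance alone meets in about 1 of 20 groups. Ctss was lowest on siFoxO6-2 replicate 4, at 1.14, and Kin on replicate 3, at 0.36. Highest on replicate 3 was Plxnb1, a semaphorin 4D receptor, at 0.65. On replicate 1 Gap43 was highest at 0.81 and Zmat3 at -0.36. Replicate 3 also had a highest correlation of 0.287 with the other arrays of its siRNA, far under that of the other 3 arrays. The difference between siFoxO6-2 and siFoxO6-3 in Sufu, at -1.15 (limma adjusted p = 0.0445), was the only one of its contrast to pass.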

How the results depend on the processing

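The count of 2224 genes became 0 with median centring (5324 at an unadjusted p under 0.05, with 78.7% of the called genes keeping their direction) or with no normalization (6502), 0 with the scrambled pool given the spread of 1 siRNA pool (1124), 284 with the siFoxO6-2 arrays alone and 5970 with array weights. It was 352 to 4281 with 1 array left out. Foxo6 stayed below 0 throughout and was not called with median centring (-0.31, adjusted p = 0.355), with no normalization relative to the median of all genes (-0.40, adjusted p = 0.818) or with the spread of the scrambled pool (-0.95, adjusted p = 0.793), and it ran from -1.03 to -0.84 with 1 array left out. The count of 1 for siFoxO6-2 minus siFoxO6-3 was 2 without background correction, 20 with array weights, 0 to 4 with 1 array left out, and 0 with the median spot intensity, median centring, no normalization, the deposited table, no dye term, the mean of all probes, every probe by itself, a trended robust variance or the replicate block (0 genes, with 2237 called against scrambled under that block).

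Of 155 called named genes, 23 had the other sign with median centring: Trim2 (0.033), Ndel1 (0.14), Rhoa (0.16), Cdk5r1 (0.066), Cux1 (0.14), Tyms (0.075), Plk1 (0.0071), Ccnd1 (0.032), Smo (0.22), Rptor (0.23), Dhcr7 (0.14), Syt11 (0.11), Cplx2 (0.033), Sst (0.0055), Erbb4 (0.35), Tcfap2c (0.089), Pax6 (0.34), Prim2 (0.097), Cdc25b (0.037), Zmat3 (0.18), Akt1 (0.092), Phlpp1 (0.19) and Tsc2 (0.26). With no normalization relative to the median of all genes 13 did so: Ndel1 (0.049), Rhoa (0.071), Cux1 (0.044), Smo (0.12), Rptor (0.14), Dhcr7 (0.052), Syt11 (0.017), Erbb4 (0.26), Pax6 (0.25), Prim2 (0.0040), Zmat3 (0.090), Phlpp1 (0.096) and Tsc2 (0.17). With Cy3 on the siRNA pool alone Tubb2b was at -0.35. The cause was not tested. The calls lost were 108, 74, 12 and 107 without siFoxO6-2 replicates 1, 2, 3 and 4, 26 with the mean of all probes and 103 with the siFoxO6-2 arrays alone, and 42 were kept without any 1 siFoxO6-2 array. A block by slide or scan was not run, since the files name neither.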

Other observations

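Zinc finger genes with a Zfp symbol, examined after several of them appeared among the rises, had 290 measured members, of which 26 rose (8.97%) and 12 fell (4.14%), against 4.66% and 5.36% of all named genes. Their median log2 ratio was 0.05, with array medians of 0.09, 0.09, -0.02 and 0.07 on siFoxO6-2 replicates 1 to 4.

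Sex-linked transcripts, also examined after their values were seen, differed between the pools of embryos. Xist, the RNA of the inactive X chromosome, was at -3.31, 1.58, -2.43 and -3.23 on replicates 1 to 4, and the Y-linked Eif2s3y at 1.35, -3.23, 0.33 and 1.20. Replicate 2 stood opposite to the other arrays in both genes, and neither was called. The Y-linked Kdm5d was at -0.87, 0.22, -0.32 and 0.17 and did not follow that order. Uty was at -0.41, -0.63, -0.34 and -0.12 (-0.38, limma adjusted p = 0.047), a call lost without replicate 1 (-0.37), 2 (-0.27) or 4 (-0.47), with the siFoxO6-2 arrays alone and as the mean of its probes (-0.04). Without replicate 2, 975 genes were called in place of 2224, and the part of the pools' sex in any result was not tested.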
